A study of Homo sapiens with 4 samples.

Results

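Aminoacyl-tRNA synthetase genes were examined in 4 RNA-seq libraries of MIA PaCa-2 cells, an established human pancreatic ductal adenocarcinoma line. Members were chosen by gene symbol, as a 1-letter amino acid code followed by ARS and an optional 1 or 2, together with EPRS1, FARSA, FARSB and FARS2. This gave 37 of the 16834 genes in the table, of which 17 with a symbol ending in 2 formed the mitochondrial group and the other 20 the cytosolic or shared group. The rule uses symbols and no measured value, but the family was taken up with earlier results of these data known. All 37 genes had reads in every library. All 4 samples carried the genotype entry WT, and the control sample was labelled only as control, with no vehicle named. The other libraries came from cells given 1 µM neobractatin (NBT), 5 µM trametinib, or both agents at those doses (the combination), and the treatments lasted 12 h. NBT is a natural compound of Garcinia bracteata, and trametinib is an inhibitor of MEK in the MAPK pathway. Each condition had 1 library from 1 cell line, so no difference between conditions had a replicate check and no p-value is given.

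Each synthetase joins 1 amino acid to its matching tRNAs, and the charged tRNAs then deliver amino acids to the ribosome. The cytosol and the mitochondrion are served by separate enzymes for most amino acids, and the mitochondrial enzymes are encoded in the nucleus and imported. Several cytosolic enzymes are held together by scaffold proteins in the multisynthetase complex. When charging falls short, uncharged tRNA activates the kinase GCN2, which phosphorylates eIF2α and favours translation of the transcription factor ATF4, and genes of several cytosolic synthetases are known targets of ATF4.

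The libraries held 18776212 (control), 19437747 (NBT), 18949915 (trametinib) and 19614763 (combination) estimated reads assigned to genes. The synthetases were well covered, with 196 to 13214 reads per gene and library. All titles named MIA PaCa-2, whereas the cell line entries of the labels carried the endings 2, 3, 4 and 5 in the 4 samples, and the libraries are treated here as the line of the titles. Of the epithelial and ductal markers, 5 of 6 were in the table, and KRT19 was not. Their summed level in TPM (a transcript level corrected for length and scaled to a fixed library total) ran from 7220 (control) to 2713 (combination). Most of it was KRT8 and KRT18, at 3799 and 3142 TPM in the control and 1493 and 995 in the combination library. EPCAM had 209 to 242 TPM, SOX9 4.39 to 31.6 and KRT7 2.25 to 5.74. VIM, a mesenchymal feature of the line, had 11.5 to 26.4 TPM. Leukocyte markers summed to at most 5.21 TPM, and acinar, endothelial and fibroblast markers to less. In RNA from a whole culture, fewer cells with a transcript and less of it per cell cannot be told apart.

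Cytosolic synthetases were the more abundant group and took a larger part of the library in both cultures that received NBT. On the TPM scale the median level of the 20 cytosolic genes was 155 in the control library, 239 in that of NBT, 176 in that of trametinib and 231 in the combination library. The median of the 17 mitochondrial genes was 36.6, 36.0, 35.6 and 36.5 TPM in the same order. The cytosolic median was therefore higher in both NBT-treated libraries, and the mitochondrial median was nearly level. Summed over genes, cytosolic synthetases took 0.466% of all reads in the control library, 0.659% in that of NBT, 0.484% in that of trametinib and 0.694% in the combination library. Mitochondrial synthetases took 0.129%, 0.116%, 0.131% and 0.107%. The summed cytosolic reads, scaled to the library sum, were 1.41-fold, 1.04-fold and 1.49-fold the control value with NBT, trametinib and the combination, and the summed mitochondrial ones 0.901-fold, 1.01-fold and 0.833-fold. The ratio of summed cytosolic to summed mitochondrial TPM was 3.94 in the control and 3.92 with trametinib, against 6.02 with NBT and 6.64 with the combination. IARS2 weighs on this ratio too, with 220 TPM in the control and 135 in the combination library.

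**Figure D1:**
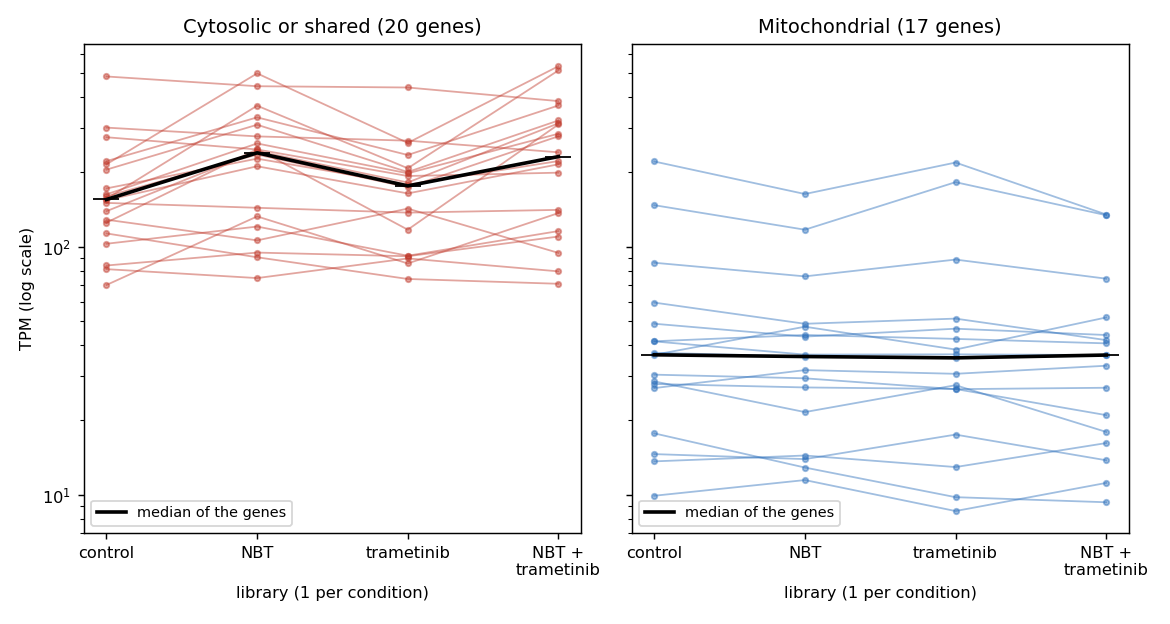
Level of each synthetase gene in the 4 libraries, in TPM on a log axis, with the cytosolic or shared genes on the left and the mitochondrial genes on the right. Thin lines join the 4 values of 1 gene and the black line joins the medians, which run 155, 239, 176 and 231 TPM for the cytosolic genes and 36.6, 36.0, 35.6 and 36.5 TPM for the mitochondrial genes.

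The order of levels within the family also differed between libraries. KARS1, which charges lysine tRNAs of both compartments, had the highest TPM of the 37 genes in the control (485) and with trametinib (438). GARS1, which charges glycine tRNAs of both compartments, was sixth in the control at 215 TPM and first with NBT (500) and the combination (534). SARS1, the seryl enzyme, stood at 156 TPM in the control and 207 with trametinib, and at 370 with NBT and 514 with the combination. The lowest levels were mitochondrial, with PARS2, the prolyl enzyme, at 8.58 to 11.4 TPM and MARS2, the methionyl enzyme, at 9.31 to 17.6 TPM.

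The comparison of NBT with the control addressed what NBT alone did to the 2 groups. Differences are given as the log2 ratio of reads, scaled to the library sum, after 0.5 reads were added to each count. The 95% intervals are exact (Clopper-Pearson) and cover counting error only, since reads copied by PCR are not independent molecules and variation between cultures was not measured. A gene was called when it passed the study's kind of limits, an adjusted value of at most 0.05 in an exact binomial test of the 2 counts and a log2 ratio of at least 1 in size.

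With NBT most cytosolic synthetases had more reads than in the control, and a smaller number had slightly fewer. The median log2 ratio of the 20 genes was 0.50, against -0.01 over all 15888 genes tested and -0.01 over the 8989 genes with mean reads in the range of the synthetases. The interval lay above 0 for 13 of the 20 (19.6% of all genes) and below 0 for 4 (21.6% of all genes). The 13 genes had log2 ratios of 0.24 to 1.31, and the other 7 genes, among them FARSA, HARS1, KARS1, QARS1, RARS1 and VARS1, had values of -0.28 to 0.00. Of the cytosolic genes 3 were called higher (1.6% of all genes were) and none lower (1.01%), and 9 differed upward by at least 1.5-fold (12.4% of all genes did). Among the 8989 genes of like read number, 27.6% had an interval above 0, 31.7% an interval below 0, and 3.77% were at least 1.5-fold higher. Their range, 239.5 to 9556.5 mean reads, was set by both groups of synthetases together. Every cytosolic gene had at least 1676 reads in each library, and intervals of genes with more reads are narrower. The shares of these genes, here and below, are therefore not matched in depth to either group alone.

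SARS1 had 2807 control reads, 7228 with NBT, 3829 with trametinib and 9929 with both agents. Its reads were highest in the 2 libraries that had received NBT, and its log2 ratio of NBT to control was 1.31 (interval 1.25 to 1.38). The gene lies at chr1:109213893-109238182 of GRCh38 on the forward strand. GARS1 (chr7:30594735-30634033, forward strand) had 4955, 12503, 6217 and 13214 reads in the same order, and its log2 ratio with NBT was 1.29 (1.24 to 1.33). WARS1 (chr14:100333790-100376327, reverse strand), the tryptophanyl enzyme and a known interferon-inducible gene, had 3036, 6552, 2917 and 8141 reads and a log2 ratio of 1.06 (1.00 to 1.12). These 3 were the genes called with NBT. WARS1 lost its call on the TPM scale (0.98), and all 3 lost it when a coefficient of variation of 0.2 among cultures was assumed. In each the lower of the 2 NBT-treated libraries exceeded the higher of the other 2.

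Just below the limit stood CARS1, the cysteinyl enzyme, and AARS1, the alanyl enzyme. CARS1 had 1676 control reads, 3426 with NBT, 2101 with trametinib and 3501 with both agents, a log2 ratio of 0.98 (0.90 to 1.07) with NBT. AARS1 had 4542, 8595, 6088 and 11014 reads and a log2 ratio of 0.87 (0.82 to 0.92). The next values were 0.71 for EPRS1, in which the glutamyl and prolyl enzymes are 1 protein, 0.66 for YARS1, 0.65 for MARS1 and 0.63 for IARS1. At the other end VARS1, the valyl enzyme, had 4382, 3745, 2891 and 2872 reads, the highest count being that of the control, and a log2 ratio of -0.28 (-0.34 to -0.21) with NBT. QARS1, the glutaminyl enzyme, had 2969, 2655, 3376 and 2338 reads and a ratio of -0.21 (-0.29 to -0.14). FARSA had 4693, 4540, 3363 and 3623 reads and a ratio of -0.10 (-0.16 to -0.04).

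The mitochondrial synthetases had a median log2 ratio of -0.06 with NBT, with the interval above 0 for 4 of 17 and below 0 for 6. These were 23.5% and 35.3% of the group, against 19.6% and 21.6% of all genes. Among genes of like read number the shares were near those of the group, at 27.6% and 31.7%. None was called, and none differed by 1.5-fold in either direction (11% of all genes were lower by that much, but 2.75% of those of like read number, so that few were to be found among 17). RARS2, the arginyl enzyme, had 781 control reads, 1093 with NBT, 852 with trametinib and 1188 with both agents, and a log2 ratio of 0.43 (0.30 to 0.57) with NBT, the highest of the group. HARS2, the histidyl enzyme, had 616, 788, 710 and 805 reads and a ratio of 0.31 (0.15 to 0.46). PARS2 had 220, 276, 196 and 266 reads and a ratio of 0.28 (0.02 to 0.54). These 3 genes were thus lowest in the control or trametinib library and higher in both NBT-treated ones.

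The lowest mitochondrial values with NBT were those of MARS2, IARS2 and LARS2. IARS2, the isoleucyl enzyme, had 7402 control reads, 5931 with NBT, 7528 with trametinib and 4853 with both agents, and a log2 ratio of -0.37 (-0.42 to -0.32). LARS2, the leucyl enzyme, had 1298, 1055, 1281 and 857 reads and a ratio of -0.35 (-0.47 to -0.23). Both genes were lower in the 2 libraries given NBT than in the other 2. MARS2 had 507, 400, 288 and 287 reads and a ratio of -0.39 (-0.58 to -0.20), so that its lower counts were those of the 2 libraries given trametinib.

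**Figure D2:**
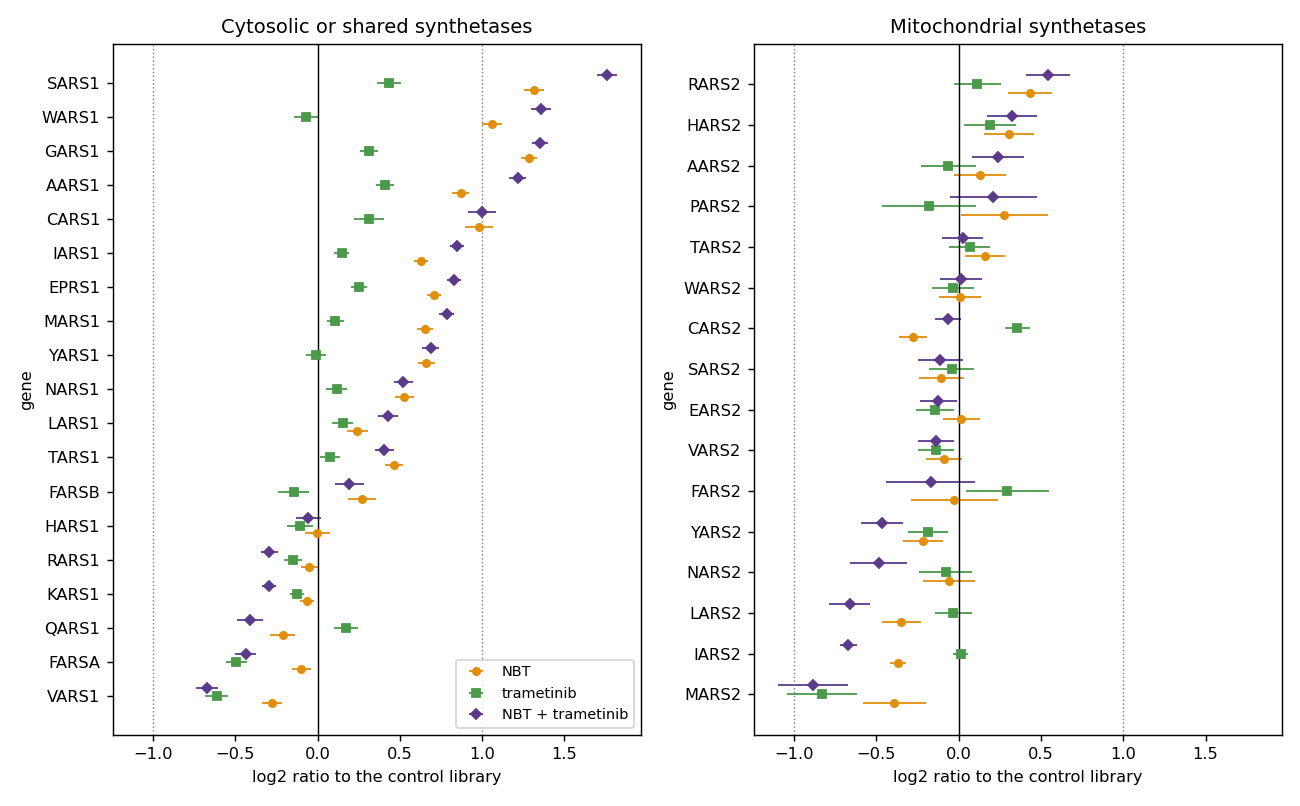
Log2 ratio of 35 synthetase genes to the control library with NBT (circles), trametinib (squares) and the combination (diamonds), with 95% intervals for counting error. Dotted lines mark a log2 ratio of 1 in size, which with the combination SARS1 (1.76), WARS1 (1.36), GARS1 (1.35) and AARS1 (1.21) exceeded and no mitochondrial gene did.

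Promoters of members were read from RefSeq (GRCh38.p14), as the 250 bases before and 50 bases after each start site. An entry matched 30 of the 37 genes. The letters searched were TGATGNAA on both strands (TTNCATCA when read on the other), a composite of C/EBP and ATF letters that ATF4 dimers are known to bind. They were present in 7 of the 16 cytosolic genes with an entry (43.8%) and in 1 of the 14 mitochondrial genes (7.14%). Among all 27305 genes with a promoter 4.46% held them, and among the 9379 with at least 50 reads in 1 library 2.68% did. The match is given in capitals within 40 bases for each of the 8 genes, 5′ to 3′ on the strand of the gene. The 8 genes are shown because they held the letters searched, so that they share them was given by the choice.

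AARS1, chr16:70289670-70289709, reverse strand: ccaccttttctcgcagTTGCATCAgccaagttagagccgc
CARS1, chr11:3057402-3057441, reverse strand: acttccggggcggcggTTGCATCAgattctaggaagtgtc
GARS1, chr7:30594829-30594868, forward strand: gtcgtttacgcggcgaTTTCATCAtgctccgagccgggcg
IARS1, chr9:92293687-92293726, reverse strand: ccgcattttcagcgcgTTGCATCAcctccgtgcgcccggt
MARS1, chr12:57488048-57488087, forward strand: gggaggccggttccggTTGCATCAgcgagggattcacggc
NARS1, chr18:57621799-57621838, reverse strand: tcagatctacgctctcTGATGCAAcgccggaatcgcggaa
TARS1, chr5:33440951-33440990, forward strand: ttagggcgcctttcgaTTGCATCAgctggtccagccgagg
YARS2, chr12:32756071-32756110, reverse strand: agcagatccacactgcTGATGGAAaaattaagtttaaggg

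The same 8 letters, TTGCATCA, stood in AARS1, CARS1, IARS1, MARS1 and TARS1, and their reverse complement, TGATGCAA, in NARS1. In 6 of the 7 cytosolic genes the match began within 35 bases of a start site, and in AARS1 it began 187 bases before one. In YARS2, the mitochondrial tyrosyl enzyme, it began 197 bases before the start site. All 7 cytosolic genes with the letters had higher reads with NBT, with log2 ratios of 0.46 to 1.29 and a median of 0.65. The 9 cytosolic genes with an entry and no match had values of -0.21 to 1.31 and a median of 0.00. YARS2 had a log2 ratio of -0.22 with NBT. A match is a description of the letters and not a bound site, and the absence of one says only that these letters were not in the window.

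Whole promoters are shown for the 3 cytosolic genes with the highest log2 ratio with the combination (SARS1, WARS1 and GARS1) and for RARS2, the mitochondrial gene with the highest. Only that of GARS1 held the letters, again in capitals. Where a gene had several start sites, 1 promoter is shown.

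SARS1, chr1:109213643-109213942, forward strand: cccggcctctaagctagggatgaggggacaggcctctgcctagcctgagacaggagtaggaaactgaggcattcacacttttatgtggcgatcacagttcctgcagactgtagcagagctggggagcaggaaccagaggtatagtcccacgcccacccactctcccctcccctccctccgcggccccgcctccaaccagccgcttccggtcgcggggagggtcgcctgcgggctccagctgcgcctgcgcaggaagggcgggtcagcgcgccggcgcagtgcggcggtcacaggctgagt
WARS1, chr14:100375298-100375597, reverse strand: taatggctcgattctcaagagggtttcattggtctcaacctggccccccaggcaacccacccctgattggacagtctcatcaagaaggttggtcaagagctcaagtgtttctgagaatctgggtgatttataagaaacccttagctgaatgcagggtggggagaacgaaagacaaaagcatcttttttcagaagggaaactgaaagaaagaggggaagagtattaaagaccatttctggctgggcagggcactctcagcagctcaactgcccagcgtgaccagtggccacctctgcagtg
GARS1, chr7:30594628-30594927, forward strand: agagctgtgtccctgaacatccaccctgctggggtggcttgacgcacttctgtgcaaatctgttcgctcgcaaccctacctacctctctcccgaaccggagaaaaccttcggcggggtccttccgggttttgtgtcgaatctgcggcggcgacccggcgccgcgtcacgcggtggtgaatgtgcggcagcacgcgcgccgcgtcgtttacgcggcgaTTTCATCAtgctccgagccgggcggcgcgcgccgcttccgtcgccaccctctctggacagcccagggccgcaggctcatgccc
RARS2, chr6:87589938-87590237, reverse strand: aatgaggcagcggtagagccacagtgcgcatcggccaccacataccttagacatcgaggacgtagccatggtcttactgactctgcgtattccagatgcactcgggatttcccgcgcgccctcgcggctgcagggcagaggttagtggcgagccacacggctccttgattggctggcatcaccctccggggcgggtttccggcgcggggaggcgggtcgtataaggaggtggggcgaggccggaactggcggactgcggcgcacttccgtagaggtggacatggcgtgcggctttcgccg

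SARS1 and WARS1 were thus among the 3 highest genes with NBT without a match in the windows searched, while the third, GARS1, had one 33 bases before a start site.

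With trametinib alone the synthetases differed little from the control. The cytosolic median log2 ratio was 0.11, against 0.08 over all 16197 genes tested, and the mitochondrial median was -0.04. No member of either group was called (5.96% of all genes were, in either direction, and 3.4% of the 8989 genes of like read number). The interval lay above 0 for 12 of the 20 cytosolic genes (28.3% of all genes) and below 0 for 6 (19.3%). Among the genes of like read number these shares were 37.3% and 29.2%. Intervals were counted with scaling to the library sum only. TMM and median-of-ratios scaling lowered the cytosolic median to 0.037 and 0.047, so these counts can depend on the scaling. The highest cytosolic values were 0.43 (0.36 to 0.51) for SARS1 and 0.41 (0.35 to 0.47) for AARS1. The lowest were -0.61 (-0.68 to -0.55) for VARS1 and -0.49 (-0.56 to -0.43) for FARSA. VARS1 and the mitochondrial MARS2 were the members lower by at least 1.5-fold (10.8% of all genes were, and 5.06% of those of like read number). FARSA and FARSB encode the 2 subunits of cytosolic phenylalanyl-tRNA synthetase, and FARSB, with 2016, 2520, 1839 and 2408 reads in the 4 libraries, had a ratio of -0.15 (-0.24 to -0.05) with trametinib. In the mitochondrial group CARS2 was highest at 0.36 (0.28 to 0.43) and MARS2 lowest at -0.83 (-1.04 to -0.62).

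The combination was compared with the control to ask whether the pattern of NBT held when MEK was inhibited as well. The cytosolic median log2 ratio was 0.48, against 0.05 over all 16229 genes tested, and the mitochondrial median was -0.12. Of the cytosolic genes 4 were called higher (4.73% of all genes were), namely SARS1, WARS1, GARS1 and AARS1, and 9 were higher by at least 1.5-fold (21.1% of all genes were). CARS1, with a log2 ratio of 0.9995 (0.92 to 1.08), was just under the limit. The 13 cytosolic genes whose interval lay above 0 (27.9% of all genes) had values of 0.19 to 1.76, while 5 had an interval below 0 (25.2%). Among the 8989 genes of like read number these shares were 37.5% and 37.2%, and 10.6% were at least 1.5-fold higher. No cytosolic gene was called lower (3.69% of all genes were), and the lowest were VARS1 at -0.67 (-0.74 to -0.60), FARSA at -0.44 (-0.50 to -0.37) and QARS1 at -0.41 (-0.49 to -0.33).

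In the mitochondrial group more genes were lower than higher with the combination. The interval lay below 0 for 8 of 17 genes and above 0 for 3 (25.2% and 27.9% of all genes, 37.2% and 37.5% of those of like read number), and none was called. MARS2 (log2 ratio -0.88, -1.10 to -0.67), IARS2 (-0.67, -0.72 to -0.62) and LARS2 (-0.66, -0.79 to -0.54) were lower by at least 1.5-fold. This held for 14.9% of all genes and 9.58% of those of like read number. NARS2, with 651, 647, 622 and 485 reads, was lowest in the combination library at -0.49 (-0.66 to -0.32), and YARS2, with 1186, 1056, 1050 and 898 reads, stood at -0.46 (-0.59 to -0.34). The highest were RARS2 at 0.54 (0.41 to 0.67), HARS2 at 0.32 (0.17 to 0.48) and AARS2 at 0.24 (0.08 to 0.40). AARS2, the alanyl enzyme, had 599, 678, 578 and 738 reads.

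NBT was added to trametinib in a second pair of libraries, the combination and trametinib alone, which shares no library with the pair of NBT and control. In it the cytosolic median log2 ratio was 0.37 and the mitochondrial median -0.05, against -0.05 over all 16343 genes tested. Cytosolic genes called higher were WARS1 at 1.43 (1.37 to 1.49), SARS1 at 1.32 (1.27 to 1.38) and GARS1 at 1.04 (0.99 to 1.08), while 2.56% of all genes were called higher. No member was called lower (3.55% of all genes were). The interval lay above 0 for 13 cytosolic genes (22.6% of all genes, 33.7% of those of like read number). All 13 were those with an interval above 0 for NBT against control. Such an overlap over all genes was not computed, so overlaps in this paragraph cannot be read as a trait of the family. Each pair had 4 intervals below 0 in this group (here 26.9% of all genes, 37.7% of those of like read number), and KARS1 and QARS1 were in both. In the mitochondrial group 5 genes, among them CARS2, IARS2, LARS2 and YARS2, were below 0 in both pairs, of 6 with NBT alone and 7 with NBT added to trametinib, and PARS2 and RARS2 were above 0 in both.

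The direction was the same in both pairs for 34 of the 37 synthetases (91.9%), 18 of 20 cytosolic and 16 of 17 mitochondrial. Over the 11367 genes with at least 50 reads in 1 library it was the same for 75.6%. That set includes genes with fewer reads than any synthetase, whose ratios have a larger counting error. Agreement among genes of like read number was not computed, so the excess cannot be read as a trait of the family. Across the 37 genes Pearson's r between the 2 sets of log2 ratios was 0.93 and Spearman's rho 0.91, and over the 11367 genes they were 0.68 and 0.70. Genes are not independent replicates, and the 4 libraries came from 1 experiment, so these are descriptions.

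**Figure D3:**
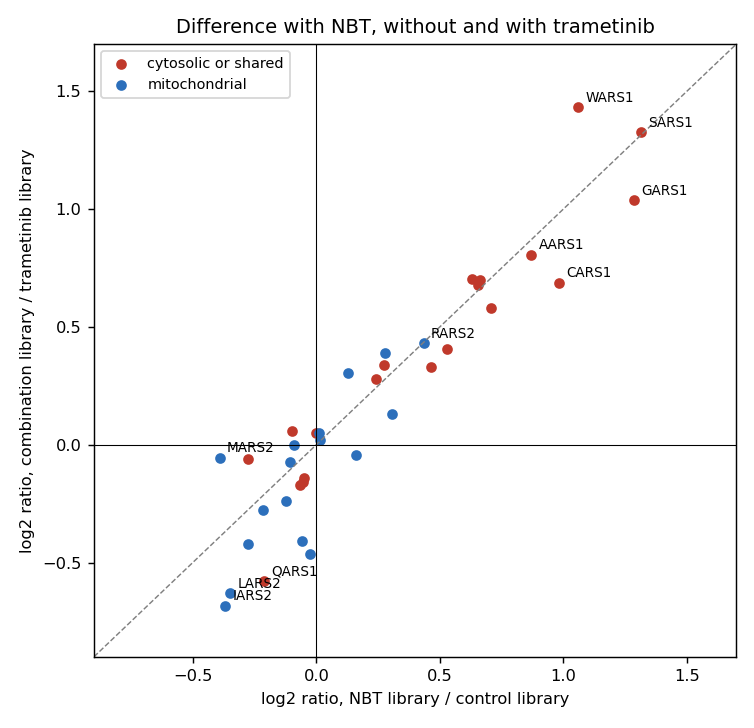
Log2 ratio of NBT to control (horizontal axis) against that of the combination to trametinib (vertical axis), with each point 1 synthetase gene and the dashed line marking equal values. The pairs share no library, and 34 of 37 genes had the same sign in both, with WARS1, SARS1 and GARS1 highest and IARS2 and LARS2 lowest on the vertical axis.

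The combination was compared with NBT alone to describe trametinib added to NBT. In the combination against NBT alone the cytosolic median was 0.02 and the mitochondrial -0.07, against 0.03 over all 16250 genes tested. No member was called (4.36% of all genes were, and 2.28% of those of like read number). The interval lay above 0 for 8 of 20 cytosolic and 1 of 17 mitochondrial genes (23.4% of all genes) and below 0 for 6 and 7 (19.3%). Among genes of like read number these shares were 32.9% and 28.5%. SARS1 had the highest value, 0.44 (0.40 to 0.49), followed by AARS1 at 0.34 (0.30 to 0.39) and WARS1 at 0.30 (0.25 to 0.35). MARS2 had the lowest, -0.49 (-0.72 to -0.27), followed by NARS2 at -0.43 (-0.60 to -0.26) and VARS1 at -0.40 (-0.47 to -0.33). The direction matched that of trametinib against control, a pair with no library in common, for 26 of 37 synthetases (70.3%). It did for 71.6% of the 11367 genes, a set that again includes genes with fewer reads.

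The combination was also set against the sum of the single agents. The departure from additivity, the log2 ratio of the combination to control minus the sum of those of NBT and trametinib, had a median of -0.03 in the cytosolic group and -0.06 in the mitochondrial group. It reached 1 in size in none of the 37 genes, while 2.33% of the 11367 genes did so, a share that for 37 genes would come to fewer than 1. The cytosolic extremes were 0.37 for WARS1, whose reads were near the control level with trametinib alone, and -0.37 for QARS1. The mitochondrial extremes were 0.34 for MARS2 and -0.44 for FARS2, the phenylalanyl enzyme, which had 222 to 296 reads.

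The cytosolic group was divided in 2 further ways. Of the 8 enzymes of the multisynthetase complex, EPRS1, IARS1, LARS1 and MARS1 had log2 ratios of 0.24 to 0.71 with NBT, and the other 4, among them KARS1, QARS1 and RARS1, had values of -0.21 to -0.05. The 8 had medians of 0.10 (NBT) and 0.22 (combination), and none was called. Of all genes 2.61% (NBT) and 8.42% (combination) were called in either direction, so that few were to be found among 8. The 12 other cytosolic genes had medians of 0.59 and 0.60, and all of the called genes were among them. The 3 scaffold genes of the complex, AIMP1, AIMP2 and EEF1E1, had values of -0.07 to 0.07 (NBT) and -0.08 to 0.04 (combination), and every interval included 0. By the fold of the catalytic domain, the 9 class I enzymes had medians of 0.63 (NBT) and 0.69 (combination), and the 10 class II enzymes 0.37 and 0.30, EPRS1 being of both classes. Both classes held called genes, WARS1 in class I and SARS1, GARS1 and AARS1 in class II.

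Cytosolic and mitochondrial enzymes of the same amino acid could be compared for 17 amino acids, with FARSA and FARSB averaged and EPRS1 set against both EARS2 and PARS2. The cytosolic log2 ratio was the higher of the pair in 14 of 17 with NBT, by a median of 0.59, and in 14 of 17 with the combination, by a median of 0.98. With trametinib alone it was the higher in 11 of 17, by a median of 0.13. In the combination against trametinib, the count was again 14 of 17 and the median 0.66. Serine had the widest difference with the combination (1.87), with SARS1 at 1.76 and SARS2 at -0.11. Methionine was next at 1.67, with MARS1 at 0.78 and MARS2 at -0.88. Histidine, valine and arginine ran the other way, with differences of -0.38, -0.54 and -0.83. For arginine RARS1 stood at -0.29 and RARS2 at 0.54.

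**Figure D4:**
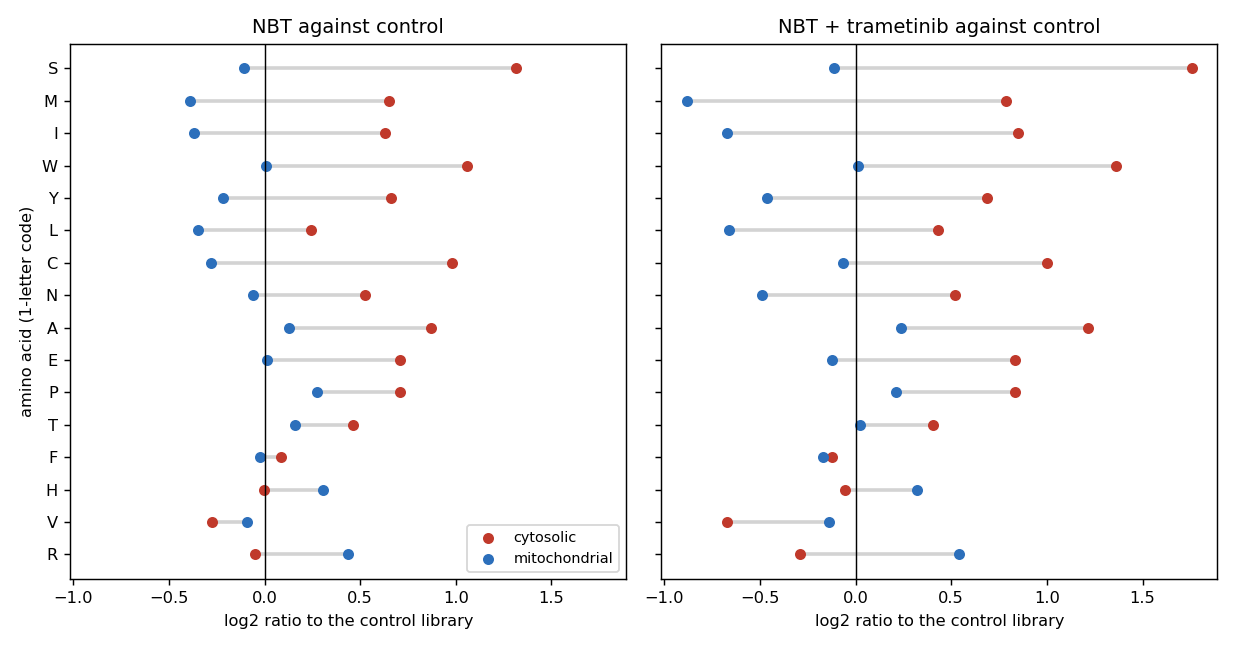
Log2 ratio to the control library of the cytosolic (red) and mitochondrial (blue) synthetase of each of 16 amino acids, with NBT on the left and the combination on the right. The red point is the higher in 13 of the 16 amino acids drawn in each panel, and H, V and R run the other way.

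Levels on the TPM scale crossed for some of these pairs. The cytosolic enzyme was the more abundant in 14 of 17 amino acids in the control library and in all 17 in the combination library. The count of 17 includes near ties, the lowest ratio being 1.02 for cysteine, and TPM carries no error here. CARS1 had 70.0 TPM in the control and 137 in the combination library, and CARS2 had 147 and 134. IARS1 had 160 and 279 TPM, and IARS2 220 and 135.

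HARS1 and HARS2 are transcribed in opposite directions from start sites 85 bases apart on chromosome 5 (GRCh38.p14), and their proteins are close relatives. HARS1 had 2754, 2850, 2584 and 2765 reads in the 4 libraries, with a log2 ratio of 0.00 (-0.08 to 0.08) with NBT and -0.06 (-0.13 to 0.02) with the combination. HARS2 had ratios of 0.31 and 0.32, and was the only one of the neighbouring pair with intervals above 0. Reads that fit both genes were divided by the authors' estimate, so values of such pairs are less certain than their intervals show.

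KARS1 makes both its cytosolic and its mitochondrial form by alternative splicing, and the transcript table separated them. The cytosolic form (NM_005548.3) took 86.7% (control), 86.7% (NBT), 86.8% (trametinib) and 87.9% (combination) of the KARS1 level in TPM. The mitochondrial form (NM_001130089.1) took 11.5%, 10.8%, 11.6% and 9.92%. The balance of the 2 forms was therefore nearly the same in all libraries, while the gene had 9213, 9118, 8542 and 7852 reads. In WARS1, NM_213646.2 took 0.03% of the level in the control library and 1.43%, 2.02% and 16.2% in the NBT, trametinib and combination libraries, and NM_213645.2 took 44.8%, 30.8%, 46.8% and 21.1%. In LARS2 the share of NM_015340.4 was 86.4%, 91.4%, 74.8% and 29.5%. Shares of transcripts that overlap along most of their length are estimates with no error given in the table.

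Genes that work with the synthetases were set beside them. Among 9 genes of GCN2 and the response to uncharged tRNA, the median log2 ratio was 0.61 (NBT) and 0.80 (combination). This list too was chosen with earlier results known. Its name does not show that tRNA was uncharged or that GCN2 was active, and what raised these reads was not tested. With NBT 4 were called higher (1.6% of all genes were) and none lower (1.01%). ASNS, which makes asparagine, had 1590, 6701, 2734 and 7217 reads in the 4 libraries, and TRIB3, a pseudokinase, had 1070, 4499, 1306 and 5426. DDIT3, the transcription factor CHOP, had 196, 1298, 443 and 2589 reads, and CHAC1, which degrades glutathione, had 93, 492, 187 and 616. All 4 counts were higher in the 2 NBT-treated libraries than in the other 2, by log2 ratios of 2.02 to 2.67 for NBT against control. The same 4 genes were called higher with the combination (4.73% of all genes were). DDIT3 was the only one called with trametinib alone (1.16, 0.92 to 1.41), where 3.82% of all genes were called higher. With trametinib alone CHAC1 was just under the limit at 0.99 (0.63 to 1.37), with ASNS at 0.77 (0.68 to 0.86) and TRIB3 at 0.27 (0.16 to 0.39).

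The other 5 genes of this list had smaller log2 ratios with NBT, of -0.50 to 0.61. IMPACT, an inhibitor of GCN2 activation, had 395, 623, 435 and 720 reads and ratios of 0.61 (NBT) and 0.80 (combination). GCN1, which activates GCN2, had 6643, 5533, 4338 and 4745 reads and ratios of -0.31 and -0.55. ATF4 itself had 8712, 13221, 10493 and 13418 reads, with a log2 ratio of 0.55 (0.51 to 0.59) for NBT and 0.56 (0.52 to 0.60) for the combination. EIF2AK4, which encodes GCN2, had 2350, 2140, 1945 and 1587 reads and a ratio of -0.63 (-0.72 to -0.54) with the combination. ATF5, a relative of ATF4, had 507, 371, 368 and 263 reads and was called lower with the combination (-1.01, -1.23 to -0.79), as 3.69% of all genes were. Protein, phosphorylation and the charging of tRNA were not measured.

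The remaining translation lists held 1 call in the comparisons of NBT and of the combination with the control, where 1.6% and 4.73% of all genes were called higher and 1.01% and 3.69% lower. Of 6 charging partners and proofreading genes, SEPSECS, which completes selenocysteine on its tRNA, was that call, with 134, 216, 195 and 283 reads and a log2 ratio of 1.01 (0.71 to 1.32) with the combination. The interval lay above 0 for 4 of the 6 with the combination (27.9% of all genes), and their median was 0.18. The 4 genes of mitochondrial glutaminyl-tRNA formation and formylation had medians of 0.06 (NBT) and 0.10 (combination), and none was called. The 10 cytosolic elongation and termination factors had a median of 0.10 with each, none called, with the interval above 0 for 6 with NBT (19.6% of all genes) and EEF1A1 at 0.33 with NBT and 0.56 with the combination. Genes with many reads have narrow intervals that leave out 0 at small ratios, so that share is not matched in depth. EEF1G, with 29749 control reads, had a ratio of 0.10 (0.08 to 0.13) with NBT. The 12 mitochondrial translation factors had medians of 0.02 and 0.04, none called. With the combination they ran from -0.39 for TUFM, the mitochondrial elongation factor Tu, to 0.52 for GFM2, which acts in ribosome recycling.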

How the data were processed

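RNA of 4 cultures was sequenced on a BGISEQ-500. Per the labels, the authors deposited, for each gene and transcript, expected counts (estimated reads), TPM and FPKM. The processing notes name Bowtie2 2.2.5, RSEM 1.2.8 and hg38 without a role or order, and the labelled extract protocol describes depletion of bacterial rRNA. The deposited FPKM values were not used. Counts were rounded, and 23 of the 37 genes had whole counts in every library. Ratios were scaled to each library's sum, after 0.5 reads were added. Each pair was tested over all genes with at least 1 read by an exact 2-sided binomial test with Benjamini-Hochberg adjustment (scipy 1.17.1, Python 3.11.15), a Poisson model as in the study's methods. Counts for NBT against control were also simulated from a Poisson model, with no variation between cultures. In them, 199 of 200 genes changed 4-fold and 2 of the unchanged genes were called among 15547. The simulation shares the assumption of the test, so it gives no error rate for real cultures. Each condition had 1 library, so calls compare libraries. Some members are counted in their groups but not reported here by name. Named genes were those past the limits and the extremes of each group. Members and the 6 gene lists were chosen with earlier results of these data known. Alternatives were other scalings (edgeR 4.0.16, DESeq2 1.42.0), TPM, other limits and assumed variation.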

Additional observations from a re-analysis of the deposited data

Results flagged for a closer look

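In 2 genes the difference with trametinib had opposite signs without and with NBT, each with a counting interval that left out 0. QARS1 had a log2 ratio of 0.17 for trametinib against control and -0.2 for the combination against NBT. TARS1, the threonyl enzyme, had values of 0.08 and -0.06. Under TMM and median-of-ratios scaling the TARS1 value for trametinib against control was almost 0. Intervals were computed with scaling to the library sum only, so the opposite signs of TARS1 can depend on the scaling. With 1 library per condition the change of sign was not tested. Such opposite signs were found in 2 of the 37 synthetases and in 3.91% of all genes for trametinib, and in 0 of the 37 and 2.69% of all genes for NBT.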

How the results depend on the processing

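No paired analysis was possible because each condition had 1 library, and no library could be left out. The cytosolic median log2 ratio ran from 0.43 (TPM) to 0.50 with NBT and from 0.43 to 0.48 with the combination over the scalings, added reads, filters and summed transcripts tried and without GARS1 and KARS1. With trametinib it was 0.037 under TMM and 0.047 under median-of-ratios scaling, against 0.11. The difference of the group medians stayed between 0.49 and 0.55 with NBT. The calls rested on the limits. At a ratio of at least 1.5, cytosolic genes called higher numbered 9 with NBT, 9 with the combination and 8 for the combination against trametinib, cytosolic genes called lower 1 with trametinib and 1 with the combination, and mitochondrial genes called lower 1 with trametinib, 3 with the combination and 2 for the combination against trametinib. With the coefficient of variation among cultures set to 0.2 in edgeR's exact test, cytosolic calls numbered 0 with NBT, 3 with the combination and 1 for the combination against trametinib, and with 0.4 they were 0 with NBT, 0 with the combination and 0 for the combination against trametinib. Over all genes, calls with NBT went from 414 to 1092 at 1.5-fold, to 69 at a coefficient of 0.2 and to 4 at 0.4, and with the combination from 1366 to 3053, 547 and 51. Under TPM, WARS1 with NBT was at 0.98 and lost its call. The other 1109 values of single genes under alternatives kept their side of the limits, and no called value changed sign. For the combination against NBT the cytosolic median ran from -0.01 to 0.05. How far cultures of 1 condition vary was not measured.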
